A study of Rattus norvegicus with 12 samples.

Results

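IL-6 and STAT3 signalling was followed through 10 genes in rat liver after partial hepatectomy (PH), the surgical removal of most of the liver that sets off regrowth of the remnant. The genes were IL6R, IL6ST, LIFR, OSMR, IL1R1, JAK1, JAK2, STAT3, SOCS3 and PIM3, taken by name from 14692 genes in a table of RPKM values (read counts scaled to transcript length and to the size of the library). Of these, 9 were listed under these names, and IL6R was listed under its RefSeq synonym IL6RA. All 10 passed the filter of 1 RPKM or more on average across the 12 columns, as did 8459 genes in all.

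Male Sprague Dawley rats aged 4 to 5 months had either a sham operation (Control) or a biliary fistula, which drains bile out of the body, 24 h before PH. All animals carried a duodenal catheter with a saline infusion, and in 1 of the 2 fistula groups sodium taurocholate, a bile acid, was infused into the duodenum at 0.5 mg per gram of body weight per day from 12 h before PH. Liver was taken at 0, 4, 12 and 24 h after PH, so that each of the 3 groups has 1 column at each of 4 times. The groups are called Control, BF and BA here, as in the sample titles. The titles and the other labels contradict each other: samples titled BF are described as fistula with bile acid infusion and samples titled BA as fistula without bile, whereas the study's text uses BF for the fistula alone and BA for the infusion. CYP7A1, the rate-limiting enzyme of bile acid synthesis, was listed at 386.93 RPKM in BF, 54.92 in BA and 60.0 in Control at 0 h. The same groups held 334.36, 68.83 and 57.3 RPKM by 24 h, so that BF stood apart at both times. Bile acids that return to the liver are known to repress this gene. The study reports elevated Cyp7a by quantitative PCR in rats with the fistula alone, and that the bile acid infusion reversed this. The groups were named from the titles and not from its level. If the 2 names are exchanged, every difference between BF and BA given here changes its sign and the 2 comparisons with Control trade places. The changes over time fitted across the 3 groups stay as they are. Courses, ratios and left-out runs given for BF or BA alone then carry the other name.

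Each column is the authors' combination of 2 sequencing runs, 1 on RNA of a single rat and 1 on the combined RNA of 3 rats. The values therefore come without a spread between animals, and the number of reads behind each column is unknown. Changes over time were tested with limma across all 8459 genes, with group and time as additive terms on log2(RPKM + 1). Each gene has 1 error for all its time comparisons, pooled over the 12 columns and moderated across genes. It measures how far the courses of the 3 groups departed from parallel over all 4 times. It measures neither their disagreement at the time compared nor the variation between rats. The adjusted p is the Benjamini-Hochberg value over all genes, with a threshold of 0.05. These are bulk samples, in which fewer cells of a type and less RNA per cell cannot be told apart.

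A pair of columns stood apart, 1 in BA at 4 h and 1 in BF at 12 h. ALB took 30.9% of all RPKM in the BA column at 4 h and 5.60% to 13.4% in the other 11 columns. The 9 pancreatic acinar markers summed to 140.85 RPKM in the BF column at 12 h and to between 5.13 and 23.05 elsewhere. Most of the sum elsewhere was CELA1, which ranged from 3.16 to 22.53 RPKM and was at 6.03 in BF at 12 h. CTRB1 was at 84.71 RPKM in that column and at most 0.57 in any other. The labelled tissue carried its defining markers, since 4 of 5 hepatocyte genes were found and summed to between 71155.79 and 337300.66 RPKM. Of the other cell types, the 7 Kupffer cell and macrophage markers were all found and summed to between 150.92 and 324.17 RPKM. Stellate cell markers, 5 of 5 found, summed to between 11.18 and 21.96 RPKM, and endothelial markers, 2 of 5, to between 30.99 and 55.11. Cholangiocyte markers, 2 of 4 found, summed to between 4.82 and 13.37 RPKM, and lymphocyte markers, 5 of 5, to between 0.64 and 4.78. The 4 neutrophil markers summed to between 2.89 and 62.15 RPKM, all but a trace of it from S100A8 and S100A9, while MPO and ELANE were at or near 0 in every column.

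Interleukin 6 (IL-6) binds the receptor chain IL6R, and the pair engages the signalling chain IL6ST (gp130), which the related cytokines oncostatin M and LIF also use through OSMR and LIFR. The kinases JAK1 and JAK2 bound to these chains phosphorylate STAT3, which enters the nucleus and induces its own gene, the feedback inhibitor SOCS3, the kinase gene PIM3 and many acute phase genes of the hepatocyte. IL1R1, the signalling receptor of interleukin 1, feeds a part of the acute phase programme from outside the gp130 family. In the regenerating liver this pathway is known as part of the early priming of hepatocytes, driven by IL-6 from Kupffer cells.

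The transcription factor itself and its feedback inhibitor rose steeply by 4 h. STAT3 in Control was listed at 33.53 RPKM at 0 h, 198.28 at 4 h, 139.2 at 12 h and 116.25 at 24 h. In BF it was listed at 79.81, 191.59, 97.89 and 87.56 RPKM at the same times, and in BA at 91.94, 219.76, 147.38 and 105.76. The 3 columns at 4 h lay close together and above all 3 columns at 0 h, where Control was the lowest. STAT3 was 3.20-fold higher at 4 h than at 0 h over the 3 groups (log2 1.68 ± 0.30 SE, adjusted p = 0.00254). The level had risen 5.91-fold in Control but 2.40-fold in BF and 2.39-fold in BA, and these within-group ratios of single columns carry no test. At 12 h STAT3 was still above 0 h (log2 1.00 ± 0.30, adjusted p = 0.0336), a call that was lost without any 1 of the groups (adjusted p from 0.0659 to 0.106) or with no filter on low values (0.0575). At 24 h the difference from 0 h did not pass (log2 0.70 ± 0.30, adjusted p = 0.0976), and the level had fallen from 4 h by 0.98 on the log2 scale (adjusted p = 0.0197, with 0.0899 without BF and 0.112 without BA).

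SOCS3, which blocks JAK activity at the gp130 receptor, had the largest log2 change of the 10 genes at 4 h. Control was at 11.32, 65.13, 56.95 and 30.46 RPKM at 0, 4, 12 and 24 h, BF at 12.22, 53.69, 28.93 and 19.32, and BA at 17.36, 85.14, 36.3 and 22.12. Every group was highest at 4 h and had fallen at each later time. The rise at 4 h was 4.71-fold (log2 2.23 ± 0.22, adjusted p = 0.000314). It was smaller at 12 h (log2 1.48 ± 0.22, adjusted p = 0.00206) and at 24 h (log2 0.77 ± 0.22, adjusted p = 0.0254). The 24 h call was lost when columns were rescaled on their median gene (log2 0.45, adjusted p = 0.195), without Control (adjusted p = 0.0971) and without BF (0.138). Between 4 and 24 h SOCS3 fell by 1.47 on the log2 scale (adjusted p = 0.000653). STAT3 stayed between 2.44 and 6.53 times the SOCS3 level per transcript length in all 12 columns.

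PIM3, a serine/threonine kinase that supports cell survival, did not pass at any time. It was listed at 29.03, 64.84, 50.7 and 31.19 RPKM in Control, at 34.76, 34.45, 26.52 and 24.98 in BF, and at 28.12, 41.57, 32.78 and 36.14 in BA. Control and BA had their highest column at 4 h, whereas BF had its highest at 0 h. The difference at 4 h was log2 0.56 ± 0.22 (adjusted p = 0.0668), which passed after rescaling (adjusted p = 0.0486) and without BF (0.0463). Between 4 and 24 h it was log2 -0.56 ± 0.22 (adjusted p = 0.0536, and 0.0102 after rescaling).

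**Figure D1:**
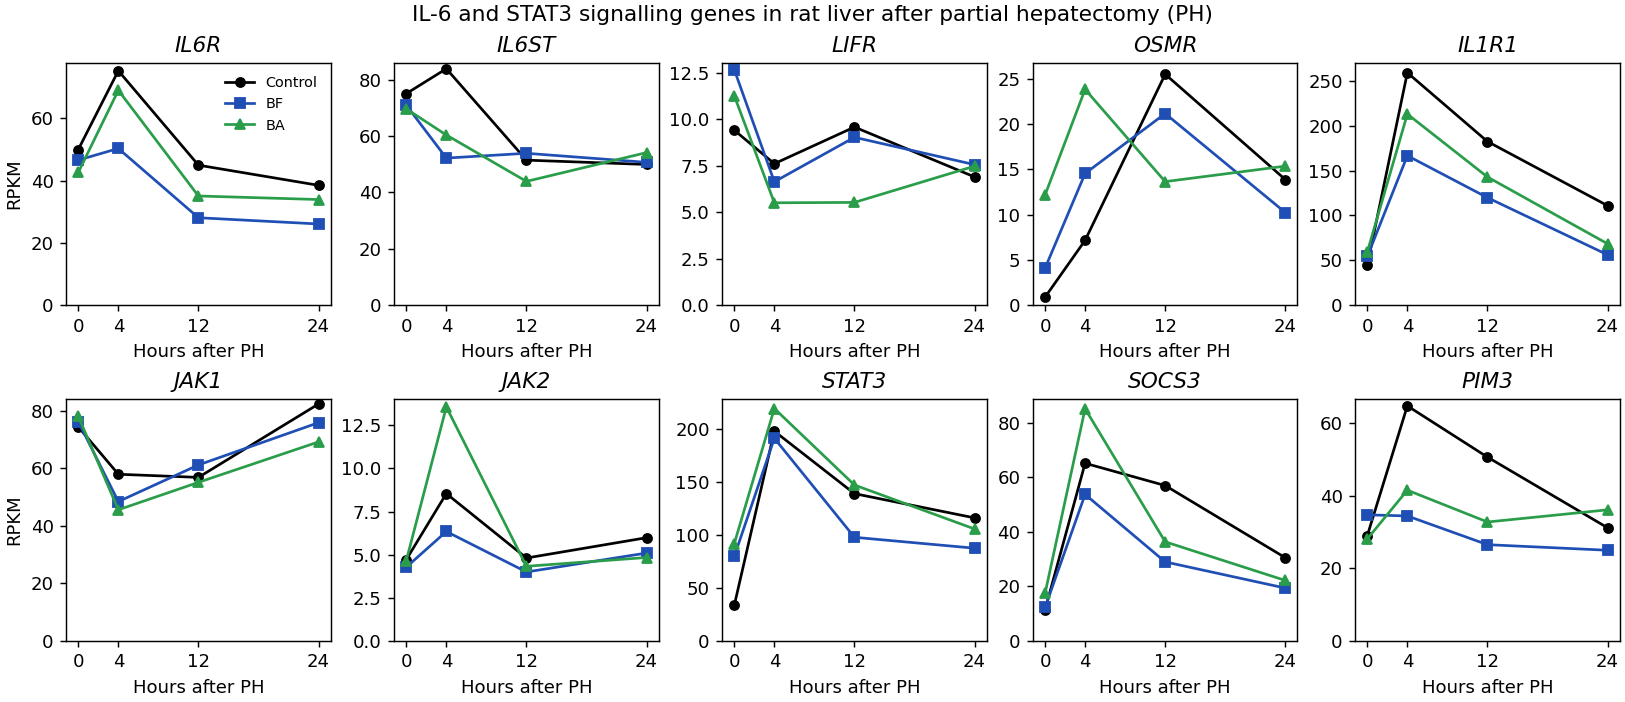
RPKM (vertical axis, linear from 0, 1 panel per gene) against hours after PH for Control (black circles), BF (blue squares) and BA (green triangles), each point 1 deposited column without an error. STAT3, SOCS3, IL6R, JAK2 and IL1R1 were highest at 4 h in all 3 groups, and OSMR in Control started at 0.88 RPKM and reached 25.48 at 12 h.

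Among the receptors, IL1R1 followed the course of SOCS3. Its RPKM values at 0, 4, 12 and 24 h were 44.8, 259.12, 182.42 and 110.9 in Control, 54.25, 166.64, 119.84 and 56.12 in BF, and 59.31, 213.0, 142.89 and 68.41 in BA. The 3 columns at 4 h were all above the 3 at 0 h. IL1R1 was 3.94-fold higher at 4 h (log2 1.98 ± 0.21, adjusted p = 0.000344) and remained higher at 12 h (log2 1.46 ± 0.21, adjusted p = 0.00154). By 24 h it had fallen from 4 h by 1.46 on the log2 scale (adjusted p = 0.000448), and its difference from 0 h did not pass (log2 0.51 ± 0.21, adjusted p = 0.0787).

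The receptor chain for IL-6 itself showed a small rise and then a fall below its starting level. IL6R was at 50.03, 75.35, 45.0 and 38.52 RPKM in Control, 46.62, 50.37, 28.1 and 26.09 in BF, and 42.65, 69.07, 35.09 and 33.95 in BA. It was 1.37-fold higher at 4 h (log2 0.46 ± 0.13, adjusted p = 0.0172), with the lowest column at 4 h, in BF, only just above the highest at 0 h, in Control. That call was lost without the BA column at 4 h (adjusted p = 0.0681), without BA (0.170) and without Control (0.134). IL6R was lower than at 0 h at 24 h (log2 -0.50 ± 0.13, adjusted p = 0.0150, with 0.0805 without Control and 0.118 without BF). At 12 h the value lay just inside the threshold (log2 -0.38 ± 0.13, adjusted p = 0.0490) and left it under 7 alternatives (adjusted p from 0.0506 to 0.266). The fall from 4 to 24 h was 0.96 on the log2 scale (adjusted p = 0.000346).

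IL6ST, the shared signalling chain, did not pass at 4 h. Control held 75.11, 83.95, 51.49 and 49.95 RPKM, BF 70.98, 52.22, 53.92 and 50.71, and BA 69.69, 60.41, 43.94 and 54.17. Control was higher at 4 h than at 0 h and the fistula groups were lower, with a fitted log2 difference of -0.16 ± 0.15 (adjusted p = 0.405). IL6ST was below 0 h at 12 h (log2 -0.53 ± 0.15, adjusted p = 0.0268) and at 24 h (log2 -0.47 ± 0.15, adjusted p = 0.0358). Without any 1 of the groups neither fall passed (adjusted p from 0.0660 to 0.149), and after rescaling the 12 h fall did not (0.0896). The difference between 4 and 24 h was log2 -0.31 ± 0.15 (adjusted p = 0.0994), and it passed after rescaling (log2 -0.77, adjusted p = 0.00464). IL6ST was between 0.875 and 1.94 times the IL6R level per transcript length.

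OSMR and LIFR, the partner chains of IL6ST for oncostatin M and LIF, went opposite ways at 4 h. OSMR was listed at 0.88, 7.15, 25.48 and 13.86 RPKM in Control, 4.08, 14.53, 21.14 and 10.22 in BF, and 12.15, 23.81, 13.63 and 15.34 in BA. Control and BF were highest at 12 h and BA at 4 h, and the BA column at 0 h was above the Control column at 4 h, so the times overlap. The rise was 2.92-fold at 4 h (log2 1.55 ± 0.55, adjusted p = 0.0436) and 4.09-fold at 12 h (log2 2.03 ± 0.55, adjusted p = 0.0215). The 4 h call was lost without the BA column at 4 h (adjusted p = 0.145), without the BF column at 12 h (0.0569), without BF (0.195), without Control (0.0553), with no filter (0.0768) and with 5 RPKM added in place of 1 (0.0533). The 12 h call was lost without the BF column at 12 h (0.0650), without Control (0.129) and without BF (0.151). At 24 h the difference was log2 1.48 ± 0.55 (adjusted p = 0.0604), which passed without BA (log2 2.06, adjusted p = 0.0231).

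LIFR was at 9.4, 7.6, 9.57 and 6.89 RPKM in Control, 12.65, 6.63, 9.02 and 7.55 in BF, and 11.25, 5.5, 5.52 and 7.47 in BA. All 3 columns at 4 h were below all 3 at 0 h. LIFR had fallen by 0.68 on the log2 scale at 4 h (SE 0.17, adjusted p = 0.0113) and was 0.54 lower at 24 h by the same measure (log2 -0.54 ± 0.17, adjusted p = 0.0361), with no call at 12 h (log2 -0.44 ± 0.17, adjusted p = 0.0761). Without BA or without BF the 4 h call was lost (adjusted p = 0.0509 and 0.113), as was the 24 h call without any 1 of the groups (0.0502 to 0.249) or with no filter (0.0588). The OSMR level per transcript length was 0.0936 times that of LIFR in Control at 0 h, the lowest quotient, and 4.33 times in BA at 4 h, the highest.

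The kinases also parted. JAK2 held 4.71, 8.54, 4.8 and 5.98 RPKM in Control, 4.27, 6.34, 3.99 and 5.09 in BF, and 4.65, 13.57, 4.32 and 4.83 in BA. Each group was highest at 4 h and close to its starting level at 12 h. JAK2 was 1.82-fold higher at 4 h than at 0 h (log2 0.86 ± 0.19, adjusted p = 0.00554), and without the BA column at 4 h, which held the highest value, the difference was log2 0.58 (adjusted p = 0.00588). Between 4 and 24 h it fell by 0.68 on the log2 scale (adjusted p = 0.0112). JAK2 at 12 and 24 h did not pass against 0 h (log2 -0.05 and 0.18, adjusted p = 0.864 and 0.468).

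JAK1, the kinase most closely tied to gp130, was lowest early. It held 74.49, 57.98, 56.89 and 82.46 RPKM in Control, 76.29, 48.46, 61.22 and 75.95 in BF, and 78.12, 45.6, 55.16 and 69.25 in BA. At 4 h all 3 columns were below all 3 at 0 h, by 0.59 on the log2 scale (log2 -0.59 ± 0.11, adjusted p = 0.00264). At 12 h JAK1 was still lower (log2 -0.40 ± 0.11, adjusted p = 0.0214), a call lost after rescaling (0.0680) and without any 1 of the groups (0.0968 to 0.119). The rise from 4 to 24 h, log2 0.58 ± 0.11 (adjusted p = 0.00171), was lost after rescaling (log2 0.11, adjusted p = 0.376). At 24 h against 0 h JAK1 was at log2 -0.01 (adjusted p = 0.948), and at -0.34 after rescaling (adjusted p = 0.0299). JAK1 exceeded JAK2 by 3.36 to 17.9 times per transcript length.

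At 4 h, 6 of the 10 genes were thus higher and 2 lower, and the rise of STAT3, SOCS3, IL1R1 and JAK2 and the fall of JAK1 held under every alternative run, each left-out group and the column of BA at 4 h included. Among all 8459 genes 12.9% were called higher and 32.4% lower at 4 h, with a median log2 change of -0.20, against 0.71 for the 10 genes. Without the BA column at 4 h 4 of the 10 were higher and 2 lower, and without the BF column at 12 h 5 and 2. Of the 10, 5 had all 3 columns at 4 h above all 3 at 0 h, where 13.6% of all genes did, and 2 had them all below, where 33.7% did. At 12 h, 4 of the 10 were higher and 3 lower, beside 9.03% and 22.5% of all genes, and the 3 falls were all lost after rescaling. At 24 h, 1 was higher and 3 were lower (0 and 4 after rescaling), beside 30.6% and 5.54%. From 4 to 24 h, 1 rose and 5 fell (0 and 7 after rescaling), beside 52.2% and 7.16%, and the median change was -0.62 for the 10 genes and 0.39 for all genes. The median gene itself moved with time, and with each column rescaled on it the calls over all genes went from 1090 higher and 2743 lower to 1531 and 2121 at 4 h, from 764 and 1900 to 1362 and 1413 at 12 h, from 2587 and 469 to 874 and 1448 at 24 h, and from 4419 and 606 to 1727 and 1955 between 4 and 24 h.

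**Figure D2:**
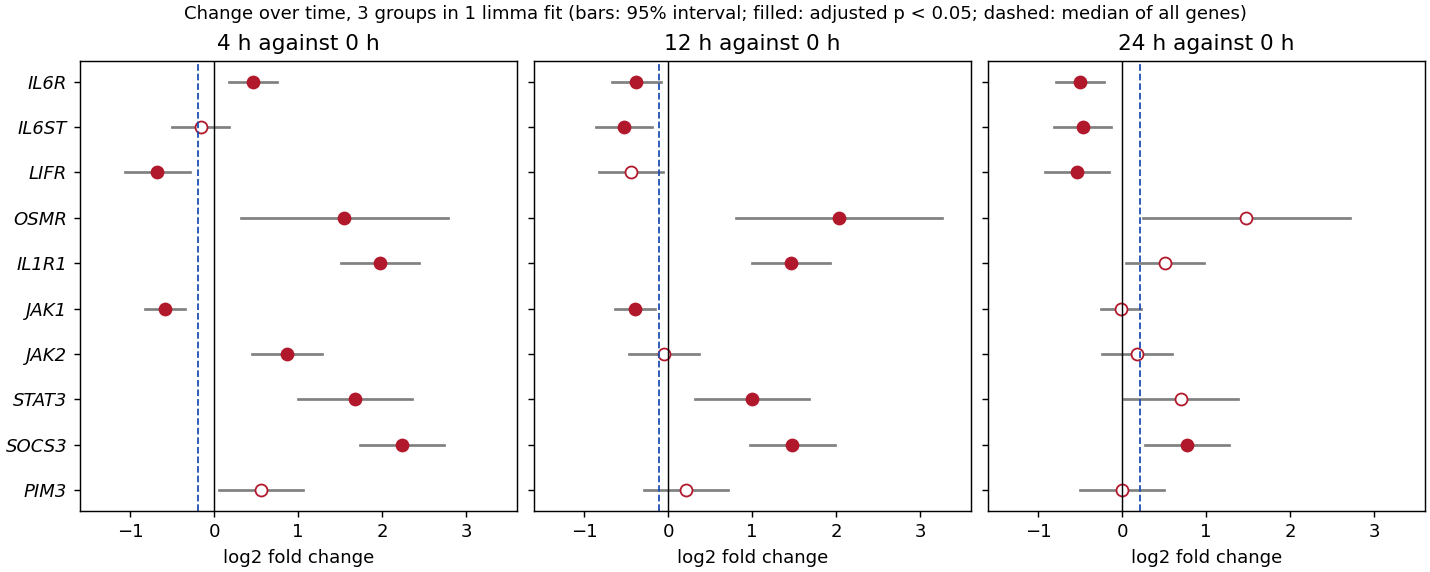
Fitted log2 fold change against 0 h (horizontal axis) of each gene at 4, 12 and 24 h, with 95% intervals as grey bars, filled points for an adjusted p under 0.05 and the median of all tested genes as a dashed line. SOCS3 (2.23), IL1R1 (1.98) and STAT3 (1.68) lie farthest to the right at 4 h, and at 24 h IL6R, IL6ST and LIFR lie to the left of 0.

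The neutrophil genes S100A8 and S100A9 moved along with these changes. Their list summed to 2.89 RPKM in Control at 0 h and to 22.09 in BF and 21.85 in BA at that time, and to 38.49, 39.16 and 55.01 at 4 h, and both genes rose at 4 h (log2 1.83 and 1.59, adjusted p = 0.0112 and 0.0156), calls lost without BA (0.0525 and 0.0713). MPO and ELANE, granule genes of the neutrophil lineage, were at or near 0 throughout. Of 7 tested Kupffer cell and macrophage genes, 0 rose and 1, EMR1, fell at 4 h by limma (log2 -0.54, adjusted p = 0.00650, with 0.0517 without Control). CD14 and CD163 were at log2 1.06 and 0.30 (adjusted p = 0.0579 and 0.0501), and CD68 and CSF1R at -0.23 and -0.33 (0.0819 and 0.0760). After rescaling, with either other pseudocount or without BF, 1 of the 7 passed as higher. At 12 h, when IL6R, IL6ST and JAK1 were called lower, 4 of the 7 fell, namely EMR1 (log2 -0.96), CSF1R (-0.59), CLEC4F (-0.56) and CD68 (-0.53), and without Control 1 did. Of 5 stellate cell genes 2 fell at 4 h, LRAT (log2 -1.15) and PDGFRB (-0.54, lost without BF at 0.0553), and 3 at 12 h, LRAT (-1.67), RELN (-0.60) and COL1A1 (-0.48), or 1 without Control or without BF. PDGFRB at 12 h was above its 0 h column in every group. Endothelial LYVE1 fell at 12 h (log2 -0.43, adjusted p = 0.0318), a call lost after rescaling and without any 1 of the groups. PECAM1 did not pass (-0.23, 0.145). Beside these lists, 12.9% of all genes were called higher and 32.4% lower at 4 h, and 22.5% lower at 12 h. The cholangiocyte gene EPCAM fell at both times (log2 -0.73 and -0.67), calls lost without Control (adjusted p = 0.141 and 0.107), without BA (0.0643 and 0.0716) and, at 12 h, without BF (0.155). At 12 h the EPCAM call was also lost after rescaling, with no filter and without the BF column at 12 h. KRT19, the other cholangiocyte gene tested, was at log2 -0.46 at 4 h and 0.008 at 12 h (adjusted p = 0.110 and 0.980). The part of these cells in the results for STAT3, JAK1 and the receptors was not tested.

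The promoters of these genes were read for motifs of the factors involved, and 9 of the 10 genes have an entry in the RefSeq promoter table of the GRCr8 build, which spans 250 bases before to 50 after each start. Those of STAT3, OSMR and JAK2 are shown because these genes rose at 4 h. The other reason is that their start lies within 241 bases of the outer end of the annotated gene. The starts used for SOCS3, IL6R, PIM3, IL6ST, LIFR and IL1R1 lie 1207, 1496, 10969, 11360, 11602 and 33825 bases inside their genes. The windows of these genes are therefore not at the outer end of the gene. Capitals mark every match to the motifs named after them. STAT3 lies at chr10:86363310-86363609 on the minus strand, OSMR at chr2:57688512-57688811 on the minus strand and JAK2 at chr1:236408655-236408954 on the plus strand, each written 5′ to 3′.
STAT3: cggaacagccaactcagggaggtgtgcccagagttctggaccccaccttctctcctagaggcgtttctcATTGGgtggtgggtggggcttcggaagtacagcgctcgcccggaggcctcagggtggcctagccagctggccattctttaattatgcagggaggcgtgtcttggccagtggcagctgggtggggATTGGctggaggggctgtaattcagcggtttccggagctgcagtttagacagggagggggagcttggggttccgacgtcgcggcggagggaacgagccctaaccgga
OSMR: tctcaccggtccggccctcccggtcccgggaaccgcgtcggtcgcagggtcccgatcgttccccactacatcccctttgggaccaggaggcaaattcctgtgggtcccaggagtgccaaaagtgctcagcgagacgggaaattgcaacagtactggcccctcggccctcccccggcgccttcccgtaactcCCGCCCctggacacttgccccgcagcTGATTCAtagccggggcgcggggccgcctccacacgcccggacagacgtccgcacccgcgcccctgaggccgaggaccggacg
JAK2: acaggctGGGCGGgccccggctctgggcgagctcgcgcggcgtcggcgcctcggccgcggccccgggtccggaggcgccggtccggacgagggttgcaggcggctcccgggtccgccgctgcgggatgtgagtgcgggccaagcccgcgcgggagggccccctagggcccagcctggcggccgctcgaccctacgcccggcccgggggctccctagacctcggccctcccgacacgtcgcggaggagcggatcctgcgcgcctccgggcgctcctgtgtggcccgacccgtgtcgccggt
The STAT motif TTCNNNGAA was in 0 of the 9 promoters and in 8.87% of all 33469, both strands read, and the C/EBP motif TTGCGNAA in 0 and in 0.846%. The AP-1 motif TGANTCA was found in OSMR alone, at position -33 from its start, and in 7.33% of all promoters. GC boxes (GGGCGG) were in 6 of 9 and in 33.1% of all, and the capitals in JAK2 and the first of OSMR are of this kind. CCAAT boxes were in 4 of 9 and in 37.5% of all, with 2 in STAT3. A match is a string of letters and not a shown binding site, and no match says only that these letters are not in this window.

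The fistula groups were compared with Control at 0 h, before PH, to see where the pathway stood when surgery began. STAT3 was 2.34-fold higher in BF and 2.69-fold in BA than in Control (log2 1.23 and 1.43 after adding 1 RPKM). OSMR was 2.70-fold higher in BF and 6.99-fold in BA on the same scale. These were the only 2 of the 10 genes with a log2 ratio of at least 1 in either group, a size reached by 1.73% of all genes in BF and 1.87% in BA. The other 8 lay between log2 -0.12 and 0.39 in BF and between -0.23 and 0.58 in BA, with SOCS3 in BA and LIFR in BF the highest. Each side of these ratios is 1 column, so they have no replicate check and no test. The OSMR ratio in BA depended on the constant added, with log2 3.64 at 0.1 RPKM and 1.54 at 5 RPKM.

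**Figure D3:**
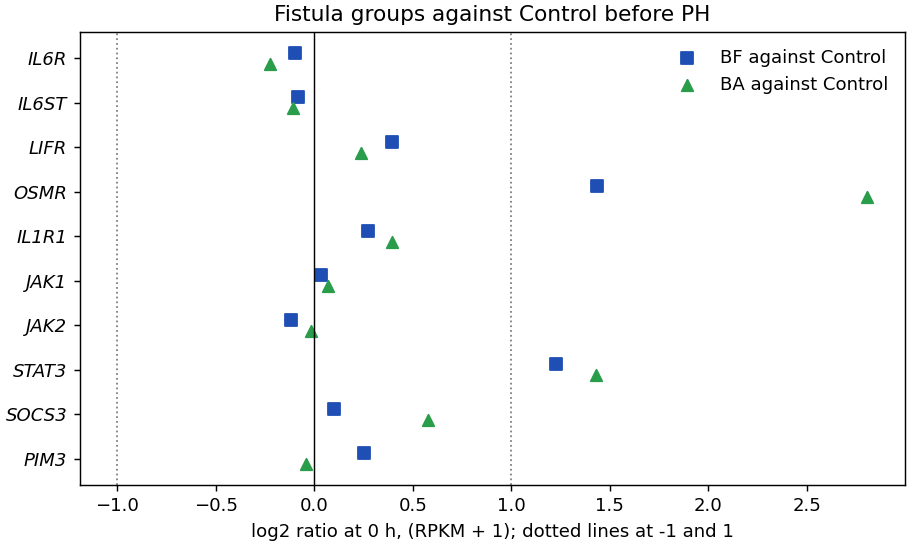
log2 ratio of RPKM + 1 at 0 h (horizontal axis) of BF (blue squares) and BA (green triangles) over Control for the 10 genes, 1 column on each side and no error. STAT3 and OSMR lie beyond the dotted line at 1 in both groups, and the other 8 genes lie between -0.23 and 0.58.

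Averaged over the 4 times, no difference between groups passed for any of the 10 genes by limma. Such an average cannot show a difference that changes direction with time. In BF against Control, STAT3 was at log2 1.23, -0.05, -0.50 and -0.40 at 0, 4, 12 and 24 h, and at 0.07 ± 0.26 on average. OSMR was at 1.43, 0.93, -0.26 and -0.41, and at 0.43 ± 0.47 on average. The ratios at single times are of 1 column on each side and were not tested. In BF against Control 0 of 10 passed (adjusted p from 0.0834 to 0.898), beside 0.804% of all genes, and 4 had an unadjusted p under 0.05, as did 21.9% of all genes. These 4 were IL6R (log2 -0.47 ± 0.11, adjusted p = 0.0834), IL1R1 (-0.48 ± 0.18, 0.169), PIM3 (-0.47 ± 0.19, 0.203) and SOCS3 (-0.44 ± 0.19, 0.224). IL6R was lower in BF than in Control in 4 of 4 times, and the other 3 were lower in 3 of 4, after 0 h. The 68 genes called in this comparison split into 27 higher and 41 lower, and into 37 and 19 after rescaling. In BA against Control 0 of 10 passed (adjusted p from 0.265 to 0.936), beside 0.0709% of all genes, and 0 had an unadjusted p under 0.05, a level that 22.7% of all genes reached. STAT3 was at log2 0.38 ± 0.26 and OSMR at 0.92 ± 0.47 in that comparison. In BF against BA 0 of 10 passed (adjusted p from 0.633 to 0.995), beside 0.0118% of all genes, and 1, IL6R, had an unadjusted p under 0.05 (log2 -0.25 ± 0.11), as did 7.81% of all genes. The 95% intervals were wide enough that a difference between BF and Control of 0.72 lower in IL6R or of 1.49 higher in OSMR on the log2 scale lay within them, so the missing calls do not show that the groups were alike.

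The wider pathway was read from lists by role. Among the cytokines, IL6 was at most 0.23 RPKM in any column, OSM 0.36, LIF 0.52 and TNF 0.63, and none of these 4 passed the filter. These are transcripts in liver, and the protein in blood is another measure. For IL-6 in serum, the study reports a rise after PH that was the same with and without bile acids. CTF1 was listed at 2.22 to 11.68 RPKM, IL1A at 4.36 to 13.97 and IL1B at 1.62 to 7.2. Of 6 ligand genes tested at 4 h, IL1RN, the interleukin 1 receptor antagonist, rose (log2 2.86 ± 0.46, adjusted p = 0.00150) and CTF1, cardiotrophin 1, fell by 1.03 on the log2 scale (adjusted p = 0.00576). IL1RN was highest in the BA column at 4 h, at 415.72 RPKM, beside 151.24 in Control and 109.37 in BF. Of 5 other receptor and sheddase genes, IL1R2, the decoy receptor of interleukin 1, rose (log2 1.38, adjusted p = 0.000787), while IL11RA1 and ADAM17 fell (log2 -0.75 and -0.58, adjusted p = 0.00502 and 0.00244).

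Of 5 other kinases and STATs tested at 4 h, 0 rose and 3 fell, namely STAT2 (log2 -0.77), STAT6 (-0.68) and STAT5A (-0.63). In all, 12.9% of genes were called higher and 32.4% lower at 4 h. JAK3 and STAT5B were at log2 0.11 and 0.14 (adjusted p = 0.822 and 0.418). The calls of STAT2 and STAT6 were lost without BA (adjusted p = 0.0663 and 0.115) or BF (0.0691 and 0.0900). Of 12 other inhibitors, 2 rose and 6 fell beside the same shares of all genes, and 3 rose and 5 fell after rescaling. PTPN1 and PTPN2, phosphatases that remove phosphate from JAKs and STATs, rose (log2 1.81 and 1.71, adjusted p = 0.00170 and 0.000480), with PTPN2 at 9.7, 32.96, 32.23 and 21.59 RPKM over the 4 times in Control. The 4 PIAS genes, which code for inhibitors of activated STATs, all fell (log2 -1.08 for PIAS3 to -0.28 for PIAS2), as did PTPN6 and SOCS4. Without the BA column at 4 h 4 of the 12 inhibitors fell, with PIAS2 (adjusted p = 0.0668) and SOCS4 (0.101) lost, and without BA PIAS4 was lost too (0.0588). The PIAS2 call was also lost after rescaling (0.188). SOCS2 was at log2 1.18 ± 0.73 (adjusted p = 0.212). The median log2 change was -0.63 for the kinases and STATs and -0.13 for the inhibitors, beside -0.20 for all genes.

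Of 14 STAT3 target genes outside the 10, 9 rose at 4 h, 1 fell and 4 did not pass, with a median log2 change of 0.97. The shares of all genes were 12.9% higher and 32.4% lower at that time. NNMT, a nicotinamide methyltransferase, rose most (log2 2.32 ± 0.25, adjusted p = 0.000408), followed by the AP-1 subunit JUNB (1.96 ± 0.23, 0.000507), MYC (1.79 ± 0.33, 0.00291) and the NF-kappaB regulator BCL3 (1.78 ± 0.40, 0.00676). TIMP1, FOS, BCL2L1, CEBPB and ICAM1 rose less, and IL4R fell by 1.00 on the log2 scale (adjusted p = 0.00241). JUNB was at 17.87, 86.63, 66.89 and 40.17 RPKM over the times in Control, 15.48, 75.46, 35.97 and 22.75 in BF, and 27.79, 77.23, 37.38 and 27.05 in BA. Without the BA column at 4 h 6 of the 14 rose, with BCL2L1, CEBPB and ICAM1 lost (adjusted p = 0.122, 0.103 and 0.0894). The same 3 were lost without Control (0.110 to 0.269), and TIMP1 was lost without BF (0.0706). From 4 to 24 h 6 of the 14 fell and 2 rose, beside 7.16% and 52.2% of all genes.

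Of 12 acute phase genes that IL-6 drives in hepatocytes, 5 rose at 4 h, 8 at 12 h and 1 at 24 h. Beside these counts, 12.9%, 9.03% and 30.6% of all genes were called higher at the same times. None passed in the other direction at these times by limma, with CP, ceruloplasmin, at log2 -0.50 at 4 h (adjusted p = 0.0896). Without the BF column at 12 h the count at 12 h was 4, with A2M (adjusted p = 0.0501), ORM1 (0.0603), HPX (0.0724) and LBP (0.0848) lost. It was 3 without BF, 4 without BA, 5 without Control and 4 with no filter, and the count at 4 h was 1 without BF and 2 with no filter. The fibrinogen chains were among them, with FGB at log2 1.09 ± 0.30 at 4 h (adjusted p = 0.0158) and 1.71 ± 0.30 at 12 h (adjusted p = 0.00361). At 4 h the 3 fibrinogen chains lost their calls without BF (adjusted p from 0.0811 to 0.0946) and with no filter, and SERPINA3N without BF (0.0731). HAMP, the iron hormone hepcidin, rose at 4 h (log2 2.05 ± 0.50, adjusted p = 0.00926, with 0.0639 without BA) but did not pass at 12 h (0.89 ± 0.50, adjusted p = 0.199). At 0 h, 10 of the 12 had a log2 ratio of at least 1 in BF over Control and the same number in BA, beside 1.73% and 1.87% of all genes. A2M, an acute phase protease inhibitor in rats, was at 7.61 RPKM in Control and at 1772.27 in BF and 1892.09 in BA, and ORM1, alpha-1-acid glycoprotein, was 18.5-fold higher in BF and 15.2-fold in BA. HAMP and CRP, the remaining 2, lay between log2 -0.56 and 0.31. STAT3 and OSMR were thus the members that stood above Control at 0 h beside most of these acute phase genes, again from 1 column per group with no test. The other lists were mostly not raised at 0 h. Of the 14 STAT3 targets, 2 (BCL3 and TIMP1) reached a log2 ratio of 1 in both groups, with a median of 0.33 in each. So did 1 of 6 ligands (IL1RN), 1 of 5 kinases and STATs (JAK3) and 0 of 5 receptor and sheddase genes. Of the 12 inhibitors, 0 reached it and 2 were at -1 or lower in both groups.

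**Figure D4:**
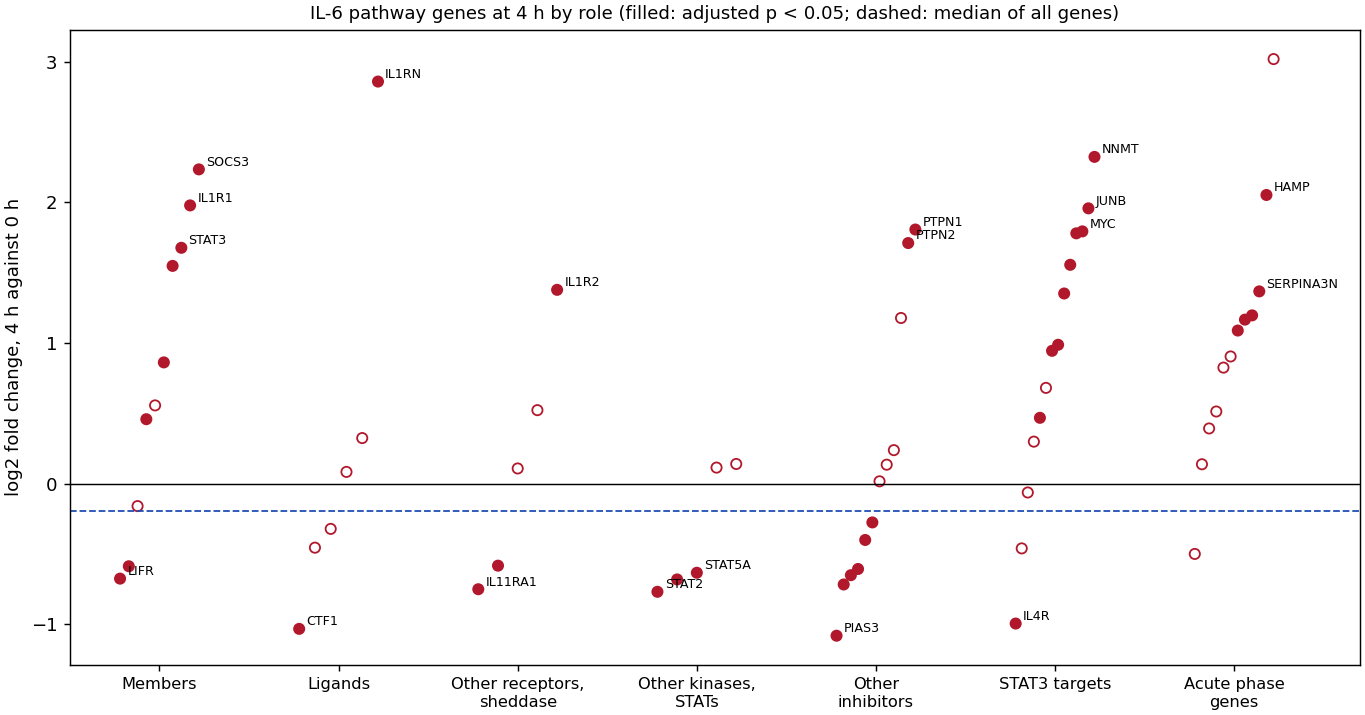
Fitted log2 fold change at 4 h against 0 h (vertical axis) of the 10 members and of 6 lists by role, 1 point per gene, filled for an adjusted p under 0.05, with the median of all tested genes as a dashed line. The members SOCS3, IL1R1 and STAT3 lie within the range of the STAT3 targets, and the other kinases and STATs lie between -0.77 and 0.14.

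Genes whose course was most like that of STAT3 or SOCS3 were sought over the 12 columns among the 6120 genes that averaged 5 RPKM or more. For STAT3, Pearson's r of log2(RPKM + 1) was highest for TNFRSF21, PCDH18 and CXCL1 (r = 0.94 each), MT2A (0.93) and SLC39A14, a zinc transporter (0.91). For SOCS3 it was highest for UBE2G2 (0.98), JUNB, KLF2 and IL1R1 (0.97 each) and PTPN2 (0.96). STAT3 and SOCS3 correlated at r = 0.90 with each other. The columns share their animals and library across genes, and the values describe a likeness without a test.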

How the data were processed

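Poly(A) RNA of rat liver was sequenced by the authors with single reads of 50 cycles. The submitters' processing notes name CASAVA, Bowtie 0.12.2 and the builds rn4 and mm8, without their roles. The values used are RPKM as deposited by the authors, rounded to 2 decimals. Each of the 12 columns combines 2 runs, on 1 and on 3 rats. The authors state that the data of the animals were averaged on the RPKM scale. Whether each run or each animal had the same weight, and the number of reads of each library, are not given in the sources used here. RPKM divides by each library's total, so a few abundant genes lower the rest, and the 10 highest genes took 29.4% to 53.2% of a column. The table lists 14692 genes, of which 1 has no value and 12388 are above 0 in some column. Columns that belong to no sample: 0.

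Genes averaging 1 RPKM or more were tested on log2(RPKM + 1) with limma 3.58.1 (R 4.3.3, moderated test with a trend, two-sided, 6 residual degrees of freedom) with group and time as additive terms. Adjusted p-values are Benjamini-Hochberg over 8459 genes. The columns of 1 time come from different treatments. The error behind the p-values therefore pools the disagreement between groups over all times and takes any true difference in their time courses as error. Ratios at 0 h are descriptions. Alternatives were another pseudocount (0.1 or 5 RPKM), no filter, columns rescaled on their median gene, no trend, and leaving out a group, a time, the BF column at 12 h or, added after the data were seen, the BA column at 4 h. The fit was tested on simulated data. Members and lists were chosen with earlier results of these data known. The 10 members were all named, together with list genes called at 4 h, CYP7A1 for the group names, and the 5 genes most like STAT3 and SOCS3. A2M, ORM1, CRP, CP, SOCS2, JAK3, STAT5B, HPX, LBP, ALB, the marker genes and the ligands below the filter were named after their values were seen, and 1 list gene is not reported here. Promoters are from RefSeq (GRCr8), used for letters and names only. Python 3.11.15, numpy 2.4.6, pandas 2.3.3 and matplotlib 3.10.9 were used.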

Additional observations from a re-analysis of the deposited data

Results flagged for a closer look

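In 7 cases the groups moved in opposite directions from their own 0 h column. Each group has 1 column per time, so these differences were not tested. PIM3 had 3 of them: its log2 change was 1.13 in Control and -0.013 in BF at 4 h (a difference of 1.145), 0.78 in Control and -0.38 in BF at 12 h (1.162), and 0.35 in BA and -0.46 in BF at 24 h (0.8119). LIFR at 12 h was at 0.023 in Control and -0.91 in BA (0.9332). IL6ST at 4 h was at 0.16 in Control and -0.44 in BF (0.5942). JAK1 at 24 h was at 0.14 in Control and -0.17 in BA (0.3163), and JAK2 at 12 h at 0.023 in Control and -0.087 in BA (0.1094).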

How the results depend on the processing

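Over the members and the list genes called at 4 or 12 h, 901 of 966 tested values had the same sign and call as reported under the alternatives that leave in all groups and times, 50 lost their call, 4 gained one and 11 changed sign. When a group or a time was left out, 327 of 444 stayed so, 101 lost their call, 2 gained one and 14 changed sign.

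The number of genes called ranged, when 1 group was left out, from 2155 to 2499 at 4 h against 0 h (3833 with all groups), from 789 to 1821 at 12 h (2664), from 752 to 2583 at 24 h (3056) and from 3619 to 4121 between 4 and 24 h (5025). When 1 time was left out, it ranged from 0 to 36 for BF against Control (68 with all times), from 0 to 15 for BA against Control (6) and from 0 to 2 for BF against BA (1). For BF against Control the count was 2 with no filter and 10 without the BF column at 12 h. For BA against Control it was 0 with no filter and 0 without the BA column at 4 h. For BF against BA it was 2 with 5 RPKM added and 3 without the BF column at 12 h. Genes with a log2 ratio of at least 1 in size between BF and Control at 0 h fell from 329 to 200 with 5 RPKM added. Fewer genes or columns are tested in some of these, and otherwise the cause was not tested.

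No reversed value had passed the test. After rescaling, SOCS3 (0.114) and JAK1 (0.00606) in BA against Control, JAK1 in BF against Control (0.0700), IL6ST in BF against BA (-0.0150), JAK2 at 12 h (0.0681) and 24 h (-0.0957) against 0 h and LIFR between 4 and 24 h (-0.268) changed sign on the log2 scale. Without the BA column at 4 h, JAK2 in BA against Control (-0.158), OSMR between 4 and 24 h (0.123) and IL6ST in BF against BA (-0.0106) did, the last also without the BF column at 12 h (-0.0824). With 1 time left out at a time, the log2 differences that turned ranged, for BF against Control, from -0.319 to 0.258 for STAT3, from -0.245 to 0.00205 for IL6ST, from -0.112 to 0.00697 for JAK1 and from -0.0446 to 0.144 for LIFR. They ranged, for BA against Control, from -0.233 to 0.171 for SOCS3 and from -0.133 to 0.157 for JAK2, and for BF against BA from -0.0913 to 0.0740 for IL6ST. With 1 group left out at a time, they ranged from -0.0890 to 0.0692 for JAK1 and from -0.180 to 0.226 for PIM3 at 24 h against 0 h, from -0.0819 to 0.499 for PIM3 at 12 h against 0 h and from -0.536 to 0.199 for OSMR between 4 and 24 h.

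No paired analysis was possible because the labels give no number that links animals or cultures between groups. The fit itself compares columns within a group and within a time through its additive terms. The number of reads is unknown, so no counting error can be given for low values such as OSMR in Control at 0 h.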
